A study of Mus musculus with 8 samples.

Results

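Integrin subunits of mouse macrophages were followed across 2 genotypes and 2 treatments. The genes were chosen by name: Itgax, Itgam, Itgb2, Itga4, Itga5, Itga6, Itgav, Itgb1, Itgb5 and Itgb7, 10 of the 55376 genes counted. They and the other gene lists were chosen with earlier results of these data known, so counts of calls among them are descriptions. All 10 passed the filter on low counts, which 13721 genes passed. Integrins are adhesion receptors made of 1 alpha and 1 beta subunit, and a subunit reaches the cell surface only with a partner. In macrophages they hold cells to matrix and to other cells, drive migration, and take up opsonised or dying targets. The beta subunit encoded by Itgb2 is restricted to leukocytes. It pairs with the Itgam product to form complement receptor 3 (CD11b/CD18, Mac-1) and with the Itgax product to form complement receptor 4 (CD11c/CD18).

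The macrophages were grown from bone marrow of male mice aged 13 weeks, with marrow from 3 mice of each genotype, wild type (WT) or DNMT3A-HET (HET). All cultures received M-CSF at 50 ng/mL. IL-6, a cytokine of inflammation whose receptor activates STAT3, was given at 10 ng/mL for 2 days in 2 of the groups, and RNA was collected on day 8. The comparisons address how the cells responded to IL-6 and whether genotype altered the level or the response. Each of the 4 groups, WT control, WT IL-6, HET control and HET IL-6, held 2 libraries, numbered 1 and 2. The labels do not describe the allele behind the name HET or tie a library to an animal, so the p-values measure only how far these libraries spread, which may be technical.

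Total counts were 50137897 in HET IL-6 number 2 and 18926641 to 24881197 in the other 7 libraries. Levels are given as CPM, the counts scaled to a common library size by TMM, in the order number 1, number 2. Dnmt3a, which encodes the DNA methyltransferase named in the genotype label, stood at 275 and 244 CPM in WT control and 166 and 248 CPM in HET control. With IL-6 it stood at 175 and 183 CPM in WT and 140.1 and 213 CPM in HET. Thus neither library labelled HET number 2 was below both WT libraries of its treatment. As a log2 fold change, HET over WT came to -0.32 ± 0.25 (SE; edgeR adjusted p = 0.506) in control and -0.02 ± 0.25 (edgeR adjusted p = 0.972) with IL-6. All 12 macrophage markers were tested. Their summed level was 16591 to 17574 CPM in the control libraries and 19893 to 21133 CPM in the IL-6 libraries. Neutrophil markers summed to 1.31 and 1.28 CPM in WT control and 2.48 and 2.68 CPM in WT IL-6. In HET they summed to 2.93 and 2.68 CPM in control and 1.62 and 1.42 CPM with IL-6. The summed level was at most 1.55 CPM for B cell markers and at most 5.42 CPM for T and NK cell markers. Cd3e, Cd3g, Ncr1, Pax5 and Igll1 had no count in any library. In bulk RNA, a change in the share of cells that express a gene cannot be told apart from a change in the RNA per cell.

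IL-6 raised 7 of the 10 integrin genes in WT and lowered 1. In HET it raised 2 and lowered 3. Itgax rose the most of the 10 in both genotypes, 5.90-fold in WT and 3.48-fold in HET, and Itgb7 fell in both, to 0.676 of control in WT and 0.369 in HET. Of all tested genes, 18.3% were called in WT and 18.3% in HET. By direction, 7.91% of tested genes were called higher and 10.4% lower in WT, and 8.87% higher and 9.41% lower in HET. The median log2 fold change was 0.41 over the 10 genes and -0.01 over all tested genes in WT, and -0.08 and 0.01 in HET. Control and IL-6 libraries did not overlap for 8 of the 10 genes in WT, against 52.6% of tested genes, and for 7 in HET, against 64.8%. In HET, the calls of Itgax, Itgb7 and Itga4 remained without both HET number 2 libraries, and those of Itgax and Itgb7 without both HET number 1 libraries. Both of these fits also called fewer of all tested genes, in each comparison that uses HET. A gene was called at an edgeR quasi-likelihood adjusted p under 0.05 (Benjamini-Hochberg over all tested genes).

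**Figure D1:**
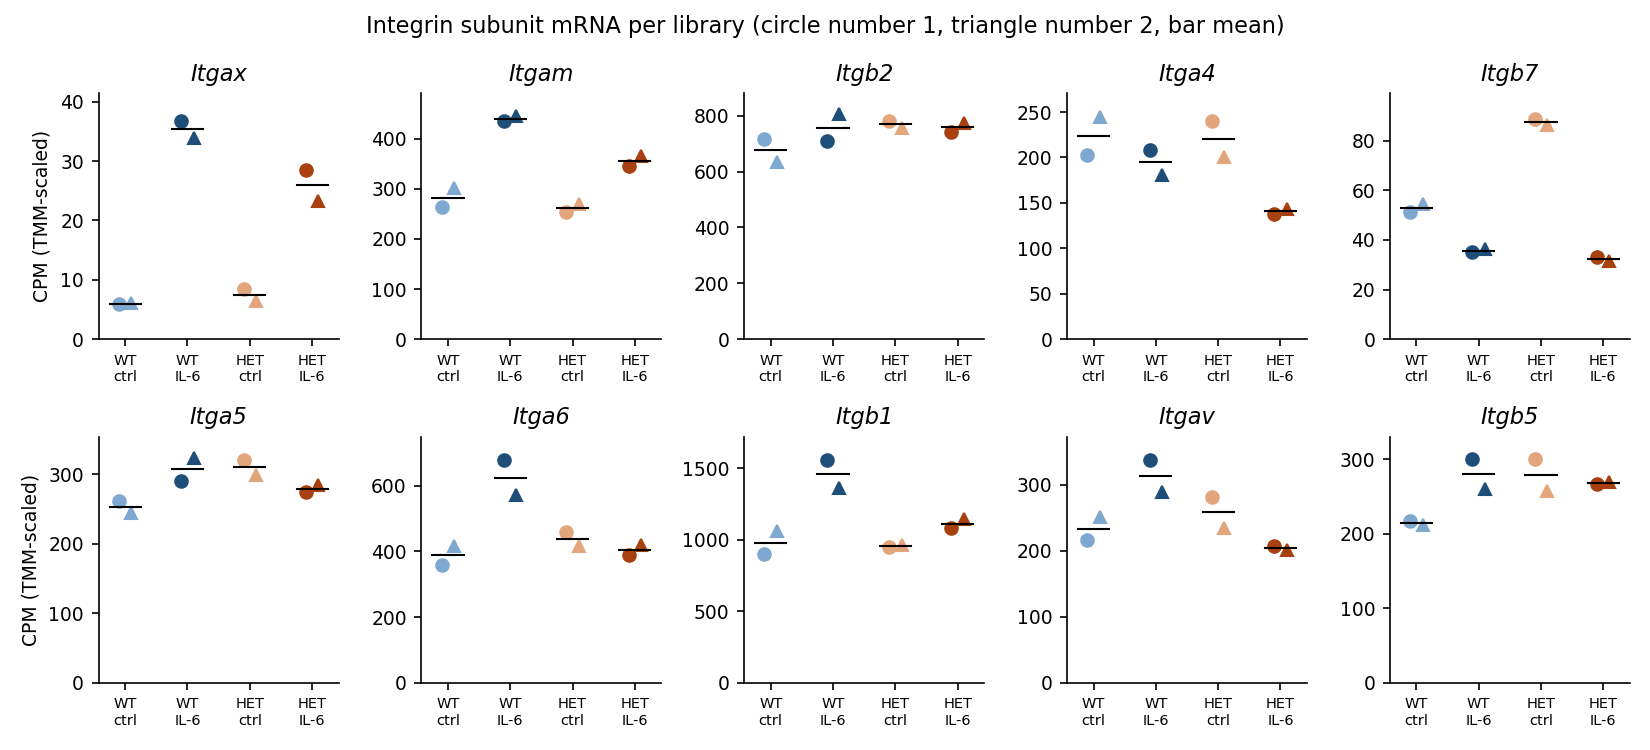
Level of each integrin gene in every library, in CPM scaled by TMM, with 1 panel for each gene and axes that start at 0. Circles are number 1 libraries, triangles number 2 libraries and bars the mean of a group (n = 2). Itgax stands at 5.86 to 8.49 CPM in the 4 control libraries and 23.3 to 36.8 CPM in the 4 IL-6 libraries, and Itgb7 at 51.3 to 88.8 CPM and 31.4 to 36.2 CPM.

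Itgax (ENSMUSG00000030789, chromosome 7, 128129547 to 128150657, plus strand, mm10) encodes CD11c, an integrin alpha chain that binds iC3b, fibrinogen and ICAM-1 and is widely used as a marker of dendritic cells and of some tissue macrophages. Itgam (ENSMUSG00000030786, chromosome 7, 128062640 to 128118491, plus strand) encodes CD11b and lies next to it. Itgb7 (ENSMUSG00000001281, chromosome 15, 102215995 to 102231944, minus strand) encodes the beta chain that pairs with the Itga4 product. Start sites of these 3 genes are shown because they gave the highest and lowest IL-6 responses of the 10 and because Itgax and Itgam are neighbours. The sequences are the 250 bases before the RefSeq start of each gene (GRCm38.p6, the assembly of mm10), read 5′ to 3′ in the direction of the gene, at chr7:128129300-128129549 (plus), chr7:128062390-128062639 (plus) and chr15:102231936-102232185 (minus). Capitals mark matches, on either strand, to GAGGAA (a PU.1 core) or GGGCGG (an Sp1 core).
Itgax: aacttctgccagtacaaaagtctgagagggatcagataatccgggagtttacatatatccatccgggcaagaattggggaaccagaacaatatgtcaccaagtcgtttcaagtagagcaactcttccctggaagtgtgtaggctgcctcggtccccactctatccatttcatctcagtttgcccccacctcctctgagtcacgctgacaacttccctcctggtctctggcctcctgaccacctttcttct
Itgam: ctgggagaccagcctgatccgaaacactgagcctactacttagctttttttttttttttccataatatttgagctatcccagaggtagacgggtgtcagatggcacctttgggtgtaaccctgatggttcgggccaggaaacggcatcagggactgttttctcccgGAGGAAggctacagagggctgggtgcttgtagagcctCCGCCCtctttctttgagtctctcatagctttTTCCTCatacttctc
Itgb7: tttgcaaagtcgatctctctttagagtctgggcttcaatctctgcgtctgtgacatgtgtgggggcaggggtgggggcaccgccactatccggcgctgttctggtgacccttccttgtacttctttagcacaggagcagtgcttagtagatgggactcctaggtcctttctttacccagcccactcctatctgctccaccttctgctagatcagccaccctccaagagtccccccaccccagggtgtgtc

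The window of Itgam held 2 matches to GAGGAA, at positions -84 and -15 from the start, and 1 to GGGCGG at -47. The windows of Itgax and Itgb7 held neither. Another motif, the palindrome TTCNNNGAA of STAT factors, was searched as well and was found in 0 of the 8 integrin genes with a RefSeq window, against 7.02% of 32851 windows of the same length. GAGGAA was found in 4 of the 8 and in 23.3% of all windows, and GGGCGG in 5 of the 8 and in 32.7%. The 3 matches in Itgam did not overlap. Itgb2 and Itga6 had no window in the table. A match in such a window is a description and not a measured site.

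Itgax stood at 5.86 and 6.13 CPM in WT control and at 36.8 and 33.9 CPM in WT IL-6. In HET it stood at 8.49 and 6.36 CPM in control and at 28.6 and 23.3 CPM with IL-6. Every IL-6 library was above every control library. The IL-6 libraries of HET were all below those of WT, whereas the control libraries of HET were slightly above. The log2 fold change with IL-6 was 2.56 ± 0.15 in WT (edgeR adjusted p = 4.13e-08) and 1.80 ± 0.14 in HET (edgeR adjusted p = 8.69e-07), and both calls held in all 16 alternative analyses. The response was smaller in HET by 0.76 ± 0.21 on the log2 scale (edgeR adjusted p = 0.0364; 95% interval of the difference -1.20 to -0.32). That call was lost without WT control number 1 (adjusted p = 0.0848), without WT IL-6 number 1 (0.0970), without HET control number 1 (0.256) and also without HET IL-6 number 2 (0.143).

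Since Itgax also marks dendritic cells, the markers of that lineage are given beside it. The 10 dendritic cell markers summed to 9.75 to 10.6 CPM in the control libraries and 4.77 to 6.63 CPM in the IL-6 libraries. Most of that sum, and its fall, was Irf4, a transcription factor that macrophages also express. The other 9 markers summed to 1.79 and 2.65 CPM in WT control and 2.56 and 1.98 CPM in WT IL-6, which overlapped, and to 2.49 and 2.38 CPM in HET control and 2.61 and 2.78 CPM in HET given IL-6. Ccr7, a chemokine receptor gene of migrating dendritic cells, rose with IL-6 in HET from 0.0437 and 0.126 CPM to 0.456 and 0.567 CPM (edgeR adjusted p = 0.0103), with at most 3 counts in a HET control library, and was not called in WT. Flt3 stood at 0.262 CPM or less and Zbtb46, a transcription factor of conventional dendritic cells, at 0.608 CPM or less in every library. The 6 monocyte markers summed to 39.4 and 47.7 CPM in WT control, 79.7 and 61.3 CPM in WT IL-6, 28.3 and 38.3 CPM in HET control and 41.7 and 49.99 CPM in HET IL-6. Most of it was the chemokine receptor gene Ccr2, which rose with IL-6 in WT by 0.67 ± 0.17 on the log2 scale (edgeR adjusted p = 0.0215). The 6 eosinophil markers summed to 4.86 to 7.46 CPM in the control libraries, 27.0 to 41.8 CPM in WT IL-6 and 11.9 to 20.3 CPM in HET IL-6, nearly all of it Ccr3, while the granule protein genes Ear1 and Ear6 had no count in any library. The 8 megakaryocyte markers summed to 124 to 134 CPM in the control libraries, 199 to 204 CPM in WT IL-6 and 274 to 297 CPM in HET IL-6, mostly the chemokine gene Pf4. Mast cell and basophil markers summed to 8.52 and 5.21 CPM in WT control and 1.82 and 1.72 CPM in WT IL-6, mostly the receptor gene Kit, and to 2.27 and 3.72 CPM in HET control and 3.40 and 3.40 CPM in HET given IL-6, with Fcer1a, Prss34, Tpsb2 and Cma1 at 0, and stromal markers to 1.34 to 11.7 CPM. The part of such cells in the integrin changes was not tested.

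Itgam stood at 263 and 302 CPM in WT control and 436 and 444 CPM in WT IL-6, and at 253 and 269.5 CPM in HET control and 346 and 365 CPM in HET IL-6. The groups with IL-6 did not overlap their controls, and HET IL-6 lay between WT control and WT IL-6. With IL-6 the log2 fold change was 0.64 ± 0.09 in WT (edgeR adjusted p = 1.10e-04) and 0.44 ± 0.08 in HET (edgeR adjusted p = 0.00215). The call in HET was lost without HET control number 1 (adjusted p = 0.0504). The response in HET differed from that in WT by -0.20 ± 0.12, with a 95% interval of -0.45 to 0.06, and was not called (edgeR adjusted p = 0.366).

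Itgb2 (ENSMUSG00000000290, chromosome 10, 77530252 to 77565708, plus strand), the shared beta chain of both receptors, stood at 718 and 635 CPM in WT control, 708 and 805 CPM in WT IL-6, 781 and 756 CPM in HET control and 742 and 775 CPM in HET IL-6. Control and IL-6 libraries overlapped in both genotypes. Its log2 fold change with IL-6 was 0.16 ± 0.09 in WT (95% interval -0.03 to 0.35) and -0.02 ± 0.09 in HET (-0.21 to 0.17), and neither was called. In both genotypes the alpha chains of the CD11b and CD11c receptors therefore rose while their beta chain was not called. Between the genotypes Itgb2 was not called in control or with IL-6, where its log2 fold change of 0.00 took either sign with the choice of scaling.

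Itgb7 and Itga4 (ENSMUSG00000027009, chromosome 2, 79255426 to 79333123, plus strand) encode the 2 chains of alpha4 beta7, a receptor for the mucosal addressin MAdCAM-1. The alpha4 chain also pairs with beta1 to bind VCAM-1 and fibronectin. Itgb7 stood at 51.3 and 54.3 CPM in WT control and 35.2 and 36.2 CPM in WT IL-6. In HET it stood at 88.8 and 86.1 CPM in control and 33.2 and 31.4 CPM with IL-6. None of the 4 groups overlapped another, HET control was the highest and HET IL-6 the lowest. In response to IL-6 the log2 fold change was -0.57 ± 0.08 in WT (edgeR adjusted p = 2.67e-04) and -1.44 ± 0.08 in HET (edgeR adjusted p = 3.23e-08). The fall was greater in HET by 0.87 ± 0.12 on the log2 scale, a difference of -0.87 (edgeR adjusted p = 6.63e-04). These 3 calls held in every alternative analysis run.

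Itga4 stood at 203 and 245 CPM in WT control, 209 and 180.4 CPM in WT IL-6, 240.2 and 200.5 CPM in HET control and 138 and 143 CPM in HET IL-6. Only HET IL-6 was apart from the other 3 groups. Itga4 fell with IL-6 in HET by 0.64 ± 0.11 on the log2 scale (edgeR adjusted p = 8.28e-04). Its call there was lost without both HET number 1 libraries (log2 fold change -0.47). In WT its log2 fold change was -0.20 ± 0.11 and was not called (edgeR adjusted p = 0.231). The difference between the genotypes, -0.44 ± 0.15, was not called (edgeR adjusted p = 0.0988), but was called without WT control number 2 (0.0133) or WT IL-6 number 2 (0.0485). So both chains of alpha4 beta7 fell in HET, and in WT Itgb7 fell and Itga4 was not called.

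Itgb1 (ENSMUSG00000025809, chromosome 8, 128685654 to 128733200, plus strand) encodes the beta1 chain, the most widely shared beta chain of matrix receptors. Itga5 (ENSMUSG00000000555, chromosome 15, 103344286 to 103366763, minus strand) completes the classical fibronectin receptor and Itga6 (ENSMUSG00000027111, chromosome 2, 71745616 to 71858416, plus strand) a laminin receptor. Itga6 stood at 359.7 and 418 CPM in WT control and 677 and 571 CPM in WT IL-6, but at 458 and 416 CPM in HET control and 389 and 421 CPM in HET IL-6. WT IL-6 was above all 6 other libraries, which overlapped one another. The log2 fold change was 0.68 ± 0.10 in WT (edgeR adjusted p = 2.83e-04) and -0.11 ± 0.10 in HET (edgeR adjusted p = 0.530). The difference, -0.79 ± 0.14, was called (edgeR adjusted p = 0.00491). It kept its call in 14 of 15 alternatives and lost it without both HET number 1 libraries (-0.66, adjusted p = 0.161).

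Itgb1 stood at 902 and 1059 CPM in WT control, 1559 and 1362 CPM in WT IL-6, 947 and 965 CPM in HET control and 1082 and 1146 CPM in HET IL-6. Control and IL-6 libraries did not overlap in either genotype, and the gap was wider in WT. It rose in WT, with a log2 fold change of 0.58 ± 0.09 (edgeR adjusted p = 6.30e-04). In HET the value was 0.22 ± 0.09 and was not called (edgeR adjusted p = 0.131). Fitted on the 4 libraries of that comparison alone, the rise in HET was 0.22 and was called (edgeR adjusted p = 0.00543). It was called without WT control number 1 (0.0495) or number 2 (0.0483), although neither belongs to that comparison. The difference of -0.36 ± 0.13 was not called (edgeR adjusted p = 0.128), except without WT control number 2 (0.0161).

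Itga5 stood at 262 and 244 CPM in WT control, 290.1 and 323 CPM in WT IL-6, 319.9 and 299 CPM in HET control and 274 and 285 CPM in HET IL-6. The order of treatments was opposite in the genotypes, with no overlap in either. As log2 fold changes these were 0.28 ± 0.08 in WT (edgeR adjusted p = 0.0307) and -0.15 ± 0.08 in HET (edgeR adjusted p = 0.254), and the difference was -0.43 ± 0.12 (edgeR adjusted p = 0.0391). These calls were near the threshold. That in WT was lost in 11 of 16 alternatives, among them without WT IL-6 number 2 (0.176), WT control number 2 (0.0915) or any 1 of the HET libraries (0.0505 to 0.0576). That of the difference was lost in 8 of 15, among them without WT IL-6 number 2 (0.0961) or any 1 HET library (0.0792 to 0.219), and with a replicate block (0.169).

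Itgav (ENSMUSG00000027087, chromosome 2, 83724397 to 83806916, plus strand) and Itgb5 (ENSMUSG00000022817, chromosome 16, 33829665 to 33949338, plus strand) encode the chains of alphav beta5, a vitronectin receptor that also takes part in the uptake of dying cells. Itgav stood at 216 and 251 CPM in WT control, 338 and 289 CPM in WT IL-6, 282 and 235 CPM in HET control and 207 and 200.7 CPM in HET IL-6. It was higher with IL-6 in WT and lower with IL-6 in HET, without overlap in either. On the log2 scale the change was 0.43 ± 0.11 in WT (edgeR adjusted p = 0.0119) and -0.34 ± 0.11 in HET (edgeR adjusted p = 0.0376), and the difference was -0.77 ± 0.15 (edgeR adjusted p = 0.00766). The rise in WT lost its call without WT control number 1 (0.0837) or WT IL-6 number 1 (0.113). The fall in HET lost its call with a replicate block (0.101) and without HET control number 1 (0.419), HET IL-6 number 1 (0.146) or HET IL-6 number 2 (0.210). The difference lost its call without HET control number 1 (0.0630) and without both HET number 1 libraries (0.159).

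Itgb5 stood at 217 and 212 CPM in WT control, 301 and 259 CPM in WT IL-6, 299 and 258 CPM in HET control and 267 and 269.8 CPM in HET IL-6. WT control was the only group apart from the others. The log2 fold change with IL-6 was 0.39 ± 0.09 in WT (edgeR adjusted p = 0.00903) and -0.05 ± 0.09 in HET (edgeR adjusted p = 0.750). The rise in WT lost its call when WT IL-6 number 1 was left out (0.101). The difference was -0.44 ± 0.13 and missed the threshold (edgeR adjusted p = 0.0521). It passed without WT IL-6 number 2 (0.0186), WT control number 2 (0.0465) or HET control number 2 (0.0480), and with DESeq2 (0.0162).

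**Figure D2:**
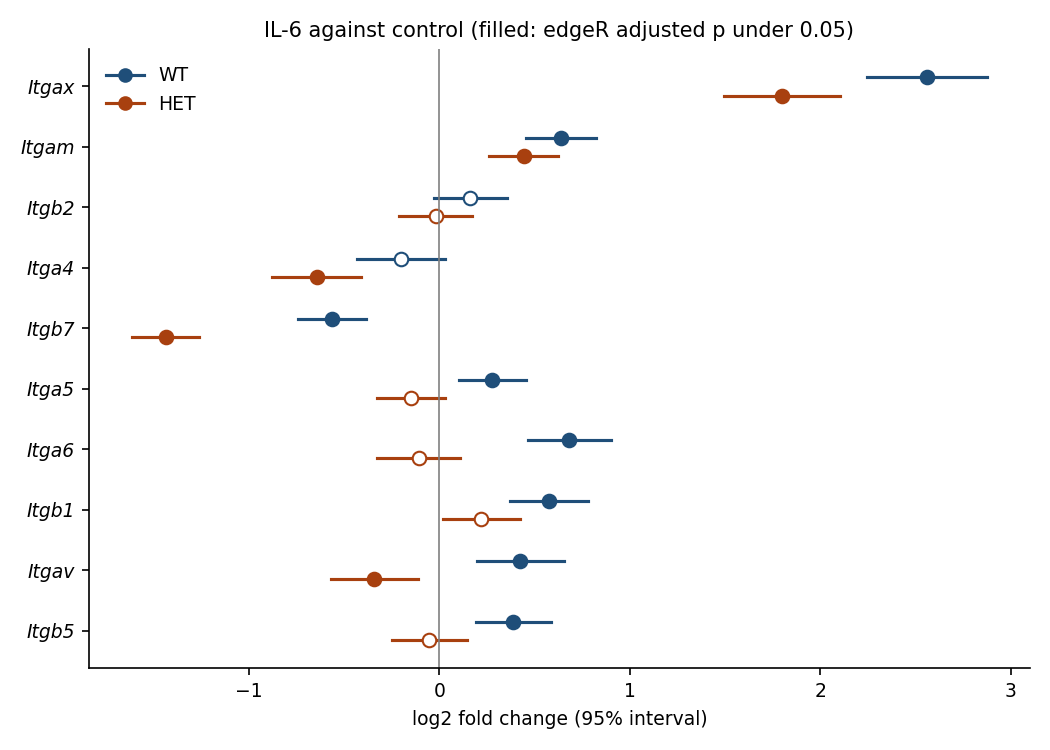
Log2 fold change of IL-6 over control for each integrin gene in WT (blue) and HET (orange), with approximate 95% intervals derived from the edgeR F statistic. Filled points have an edgeR adjusted p under 0.05. The point of HET lies to the left of that of WT for all 10 genes, and Itgav is filled on opposite sides of 0.

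The IL-6 response was lower in HET than in WT for all 10 genes in the fit, and 5 of the differences were called: Itgb7, Itga6, Itgav, Itgax and Itga5. Of all tested genes, 8.12% were called for this difference, 4.52% as higher and 3.60% as lower in HET. The median difference was -0.44 over the 10 genes and 0.02 over all tested genes. All 10 signs stayed negative in each of the 15 alternatives. Without both HET number 2 libraries, Itgb7, Itga6 and Itgav remained called, and without both HET number 1 libraries only Itgb7. Each difference combines the same 8 libraries, so the 10 values share the libraries' own deviations.

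Compared with WT in the control state, HET cells had 2 integrin genes called higher and none called lower, against 4.85% of all tested genes called (2.81% higher and 2.05% lower). Itgb7 was 1.66-fold higher, with a log2 fold change of 0.73 ± 0.08 (edgeR adjusted p = 9.25e-04), and this held in all 16 alternatives. Itgb5 was higher by 0.38 ± 0.09 on the log2 scale (edgeR adjusted p = 0.0336). This second call was lost in 8 alternatives, among them without HET control number 1 (0.383), WT control number 2 (0.0778), HET control number 2 (0.0534), HET IL-6 number 1 (0.0640) and HET IL-6 number 2 (0.0641). Itga5 missed the threshold at 0.29 ± 0.08 (edgeR adjusted p = 0.0597) and passed it without WT control number 1 (0.0317), WT IL-6 number 1 (0.0413) or WT IL-6 number 2 (0.0419). Of the pair, Itgb7 remained called when either numbered pair of HET libraries was left out. Itgax, at 0.31 ± 0.16 and not overlapping, was not called (edgeR adjusted p = 0.301). The libraries of the genotypes did not overlap for 5 of the 10 genes, against 50.6% of tested genes. The median over the 10 genes was 0.18, against 0.00 over all tested genes.

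With IL-6 the direction was the other way. In HET 6 of the 10 genes were called lower than in WT and none higher, against 22.0% of all tested genes called (13.2% higher and 8.80% lower). Itga6 was lower by 0.62 ± 0.10 (edgeR adjusted p = 0.00109) and Itgav by 0.62 ± 0.11 (edgeR adjusted p = 0.00147) on the log2 scale, and both were called in all 16 alternatives. The log2 fold changes of Itga4 (-0.47 ± 0.11), Itgax (-0.46 ± 0.13), Itgb1 (-0.39 ± 0.09) and Itgam (-0.31 ± 0.08) had edgeR adjusted p from 0.00921 to 0.0199. Each of the 4 lost its call when single libraries of this comparison were left out. Without WT IL-6 number 1 the adjusted p was 0.104 for Itga4, 0.155 for Itgax, 0.128 for Itgb1 and 0.0763 for Itgam. Without HET IL-6 number 2 it was 0.0547, 0.213, 0.0542 and 0.0845 in the same order. Leaving out HET IL-6 number 1 gave 0.0717 for Itga4, 0.0984 for Itgb1 and 0.156 for Itgam. Without both HET number 2 libraries the genes called lower were Itga6, Itgav and Itga4, and without both HET number 1 libraries Itga6, Itgav and Itgax. Itgb7, which was higher in HET control, was at -0.14 ± 0.08 with IL-6 and was not called. Libraries of the genotypes did not overlap for 8 of the 10 genes, against 65.1% of tested genes. The median was -0.35 over the 10 genes and -0.01 over all tested genes. The 4 comparisons share groups, so a high or low library enters 2 of them.

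**Figure D3:**
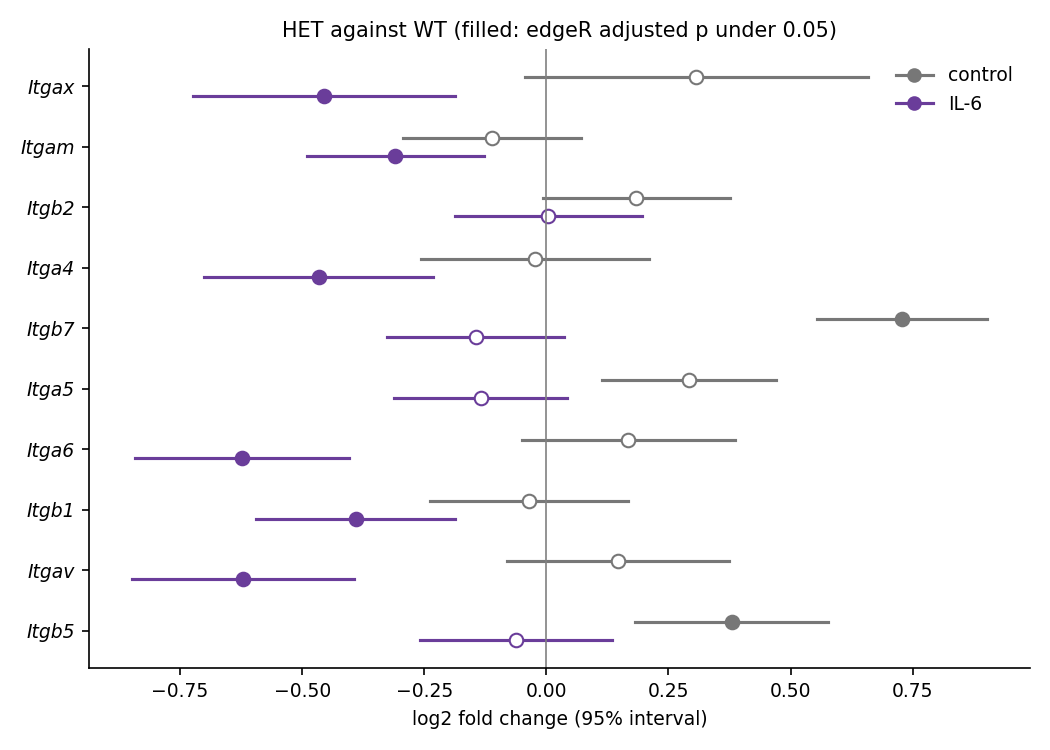
Log2 fold change of HET over WT for each integrin gene in control (grey) and with IL-6 (purple), with approximate 95% intervals derived from the edgeR F statistic. Filled points have an edgeR adjusted p under 0.05. In control Itgb7 and Itgb5 are filled to the right of 0, and with IL-6 Itga6, Itgav, Itga4, Itgax, Itgb1 and Itgam are filled to the left.

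Levels were compared between genes per kilobase of exon (RPKM, mean ± SD, n = 2). Over full exon length, the beta chains Itgb1 and Itgb2 were the most abundant in every group. In WT control Itgb1 was at 240.2 ± 27.3 and Itgb2 at 221.6 ± 19.2 RPKM, and their libraries overlapped. With IL-6 in WT Itgb1 reached 358 ± 34.0 RPKM, apart from Itgb2 at 248 ± 22.7 RPKM. Next in WT control came Itgb5 at 60.3 ± 0.98, Itgam at 56.3 ± 5.54 and Itga5 at 51.2 ± 2.62 RPKM. Itgam overlapped both Itgb5 and Itga5. Then came Itga6 at 43.1 ± 4.56 RPKM, without overlap with Itga5. Below these were Itgav at 21.7 ± 2.31, Itgb7 at 19.1 ± 0.780 and Itga4 at 16.0 ± 2.13 RPKM, with no overlap between neighbours. Itgax was the lowest of the 10 in every group, at 1.25 ± 0.041 RPKM in WT control, 7.36 ± 0.418 RPKM in WT IL-6, 1.55 ± 0.313 RPKM in HET control and 5.40 ± 0.769 RPKM in HET IL-6. Itgb7 ranked above Itgav in HET control, at 31.6 ± 0.681 against 24.1 ± 3.12 RPKM.

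The level of Itgam per length carries an uncertainty. Of its 5024 exon bases, 3450 (68.7%) also belong to Gm49368, an overlapping gene on the same strand that had 84 counts in all libraries together, against 70844 for Itgam. Reads on the shared bases were thus not counted to both genes, and the setting for such reads is not given in the sources used here. Over the 1574 unshared bases Itgam was at 179.6 ± 17.7 RPKM in WT control, 279.5 ± 3.85 RPKM in WT IL-6, 166 ± 7.20 RPKM in HET control and 226 ± 8.52 RPKM in HET IL-6. That was below both Itgb1 and Itgb2 without overlap in 3 of the 4 groups, and above Itgb2 without overlap in WT IL-6. The fold changes of Itgam do not depend on the length used. Gene overlap touched 8.04% of the exon bases of Itga4 and 5.90% of those of Itgav, and none in the other 7 genes.

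**Figure D4:**
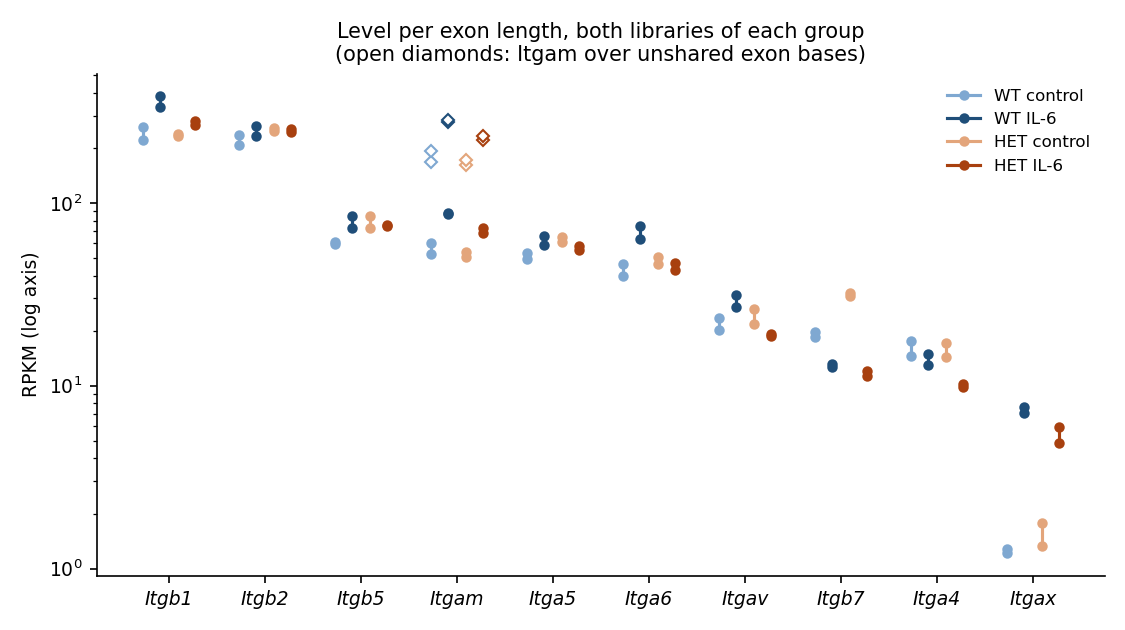
RPKM of each integrin gene on a log axis, ordered by the level in WT control, with both libraries of a group joined by a line and coloured by group; open diamonds give Itgam over the exon bases that it does not share. Itgax is the lowest gene in every group, and Itgb1 and Itgb2 are the highest over full exon length.

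The shares of Itgax among alpha chains and of Itgb7 among beta chains also moved with IL-6. Of the summed RPKM of the alpha chains that pair with beta2 (Itgal, Itgam, Itgax and Itgad), Itgax made up 2.18% and 1.97% in WT control and 7.35% and 6.74% in WT IL-6. In HET it made up 2.82% and 2.17% in control and 7.66% and 6.06% with IL-6. With Itgam over unshared bases the same share was 0.714% and 0.649%, 2.60% and 2.37%, 1.02% and 0.741%, and 2.60% and 2.03%, in the same order of groups. Itgax mRNA thus stayed a small part of this pool in all groups. Itgb7 made up 3.40% and 3.52% of the summed RPKM of all beta chains in WT control and 1.76% and 1.89% in WT IL-6. The share was 5.22% and 5.20% in HET control, and with IL-6 in HET it was 1.99% and 1.80%. No library of a control group overlapped one of an IL-6 group in these shares.

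The other integrin subunits numbered 17 in the table, of which 11 were tested. With IL-6, 4 were called higher and none lower in WT, beside 7.91% higher and 10.4% lower over all tested genes. In HET 1 was called higher and 3 lower, beside 8.87% and 9.41%. Of these calls, Itga1 and Itga9 in WT held in all 16 alternatives, and none of the 4 in HET did. Itgal, the alpha chain of LFA-1, a leukocyte receptor for ICAM-1, moved in opposite directions. It stood at 15.1 and 22.4 CPM in WT control, 63.7 and 60.99 CPM in WT IL-6, 67.9 and 40.1 CPM in HET control and 18.9 and 17.6 CPM in HET IL-6. The log2 fold change was 1.74 ± 0.27 in WT (edgeR adjusted p = 0.00480) and -1.57 ± 0.27 in HET (edgeR adjusted p = 0.00690), and the difference was -3.30 ± 0.38 (edgeR adjusted p = 0.00412). Its partner chain Itgb2 was not called in either genotype. The difference lost its call without WT IL-6 number 1 (0.0695). The rise in WT lost it without WT control number 1 (0.0854), WT IL-6 number 1 (0.0970) or WT IL-6 number 2 (0.0667), and the fall in HET without HET IL-6 number 2 (0.0652), WT IL-6 number 1 (0.0557) or WT IL-6 number 2 (0.0537).

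Itga1, the alpha chain of a collagen receptor, was near the detection limit in WT control at 0.558 and 0.618 CPM and stood at 3.31 and 2.57 CPM in WT IL-6. It rose by 2.33 ± 0.37 on the log2 scale in WT (edgeR adjusted p = 4.95e-04). Itga9, an alpha chain that binds tenascin and osteopontin, rose by 0.42 ± 0.09 in WT (edgeR adjusted p = 0.00387), and with IL-6 was lower in HET than in WT by 0.48 ± 0.09 (edgeR adjusted p = 0.00213). Itgb3, the other main partner of alphav, stood at 45.6 to 60.99 CPM in all 8 libraries. It was called lower with IL-6 in HET, from 58.0 and 56.9 CPM to 45.6 and 45.6 CPM. That call was lost in 7 of 16 alternatives. Between the genotypes, 2.81% of all tested genes were called higher and 2.05% lower in HET in control, and 13.2% and 8.80% with IL-6. In control 2 of the 11 other subunits, Itgal and Itga8, were called higher in HET and none lower. Both lost the call without WT control number 1 (adjusted p = 0.115 and 0.153), WT control number 2 (0.113 and 0.105) or either WT IL-6 library. With IL-6 none was called higher and 3 lower, Itga9, Itgal and Itga8, of which Itgal and Itga8 lost the call without WT IL-6 number 1 (0.117 and 0.175).

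Of 30 tested genes of integrin activation and adhesion signalling, 7 were higher and 2 lower with IL-6 in WT, beside 7.91% higher and 10.4% lower over all tested genes. In HET 5 were higher and 7 lower, beside 8.87% and 9.41%. Fgr, a Src-family kinase of myeloid cells that acts downstream of beta2 integrins, rose by 3.06 ± 0.30 in WT (edgeR adjusted p = 6.20e-06) and 1.86 ± 0.26 in HET (edgeR adjusted p = 1.60e-04). Parvg, a leukocyte parvin of the adhesion complex, fell by 0.73 ± 0.09 in WT and 0.66 ± 0.09 in HET. In control 3 of the 30 were higher and none lower in HET. Their calls were lost without HET control number 1, which leaves 1 library in that group, and so were most calls over all tested genes. With IL-6, 4 were higher and 4 lower, the first including Fermt3 (kindlin-3, an activator of beta2 integrins) at 0.53 ± 0.08 and Zyx at 0.52 ± 0.08. Over all tested genes, 2.81% were higher and 2.05% lower in HET in control, and 13.2% and 8.80% with IL-6. For the difference in response 0 were called higher and 4 lower. Without HET control number 1 these 4 calls were lost, as were most calls over all tested genes. For that difference, 4.52% of all tested genes were called higher and 3.60% lower. The median log2 fold change of the 30 with IL-6 was 0.11 in WT and -0.04 in HET.

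Of 15 tested integrin ligands, 5 rose and 2 fell with IL-6 in WT, beside 7.91% higher and 10.4% lower over all tested genes. In HET 4 rose and 1 fell, beside 8.87% and 9.41%. Spp1 encodes osteopontin, a ligand of alphav, alpha4 and alpha9 integrins. It stood at 3234 and 2947 CPM in WT control and 9216 and 9887 CPM in WT IL-6, and at 2429 and 2579 CPM in HET control and 10796 and 9416 CPM in HET IL-6. Its log2 fold change was 1.63 ± 0.09 in WT (edgeR adjusted p = 4.08e-08) and 2.01 ± 0.09 in HET (edgeR adjusted p = 4.95e-09). Lamc1, a chain of the laminins that alpha6 beta1 binds, rose by 1.14 ± 0.09 in WT and 1.02 ± 0.09 in HET. Fbln5, an RGD-containing matrix protein, fell in WT by 2.03 ± 0.28 (edgeR adjusted p = 1.53e-04) and was not called in HET. The median over the 15 was 0.78 in WT and 0.35 in HET. In control C3 and Icam1 were called higher and Fbln5 lower in HET. All 3 lost the call without HET control number 2 (log2 fold changes 0.34, 0.56 and -1.24), as did most genes called in control. With IL-6, 3 were called higher and 1 lower, beside 13.2% higher and 8.80% lower over all tested genes. In control the shares over all tested genes were 2.81% and 2.05%.

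Around Itgax, 29 genes of the table start within 200 kb, and 11 were tested, Itgax included. Distances run from start to start, negative upstream. Itgam, at -66.9 kb, rose in both genotypes, but less than Itgax. Of the other 9, Cox6a2, a subunit gene of cytochrome c oxidase at 76.8 kb, fell in WT by 1.88 ± 0.38 (edgeR adjusted p = 0.00317) and rose in HET by 1.74 ± 0.32 (edgeR adjusted p = 0.00168). Armc5, at 107.8 kb, fell in WT by 0.73 ± 0.10 and was at 0.03 ± 0.10 in HET. Pycard, the inflammasome adaptor gene at -135.7 kb, was not called in either genotype. BC017158, at 168.6 kb, fell in both. None of these other 9 genes was called higher in both genotypes.

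**Figure D5:**
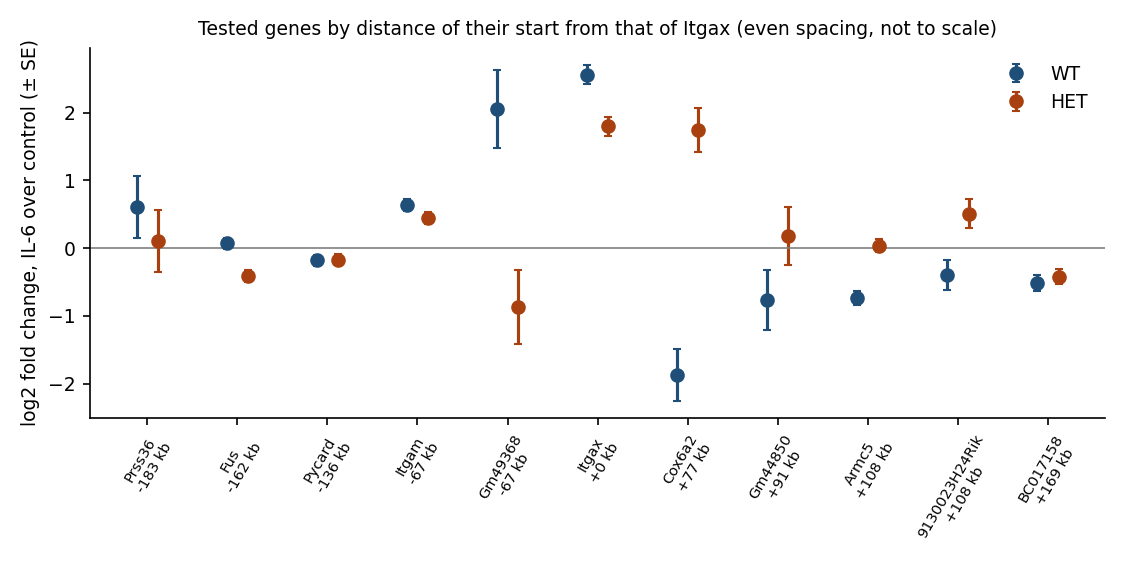
Log2 fold change of IL-6 over control (± SE) in WT (blue) and HET (orange) for the 11 tested genes that start within 200 kb of Itgax, ordered by distance with even spacing. Itgax and Itgam are above 0 in both genotypes, and Cox6a2 is on opposite sides.

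Among the 10 genes, the range of the group means of log2 CPM was widest for Itgax (2.54), followed by Itgb7 (1.43), Itgam (0.75) and Itga6 (0.68), and narrowest for Itgb2 (0.19). Over the 8 libraries Itgam varied most like Itgb1 (Pearson r = 0.948) and Itgax (0.913), and Itga6 like Itgb1 (0.889) and Itgav (0.886). Among 9485 other genes that reached 5 CPM in the mean of a group, Itgax was closest to Vcan (0.998), Xylt1 (0.996) and Gja1 (0.990). Itgb7 was closest to Anapc5 (0.993), Cxcl10 (0.992) and Nlrp10 (0.992), Itgam to Twf1 (0.990), Rnf150 (0.987) and Cysltr1 (0.986), and Itga6 to Cpd (0.996), Pde8a (0.988) and Msh3 (0.984). These correlations are descriptions over 8 libraries, in which libraries of a group share its mean.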

How the data were processed

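Gene counts of polyadenylated RNA were analysed from 8 macrophage libraries, 2 in each of 4 groups. The authors deposited raw counts per gene for 55376 genes. Per the submitters' processing notes the build was mm10 and the tools were featureCounts 1.6.2, SAMtools 1.9, STAR 2.7.9a and fastp 0.12.4. For the annotation release, strand setting and reads on overlapping genes, the choice is not given in the sources used here. Every column matched 1 library by name. In R 4.3.3, edgeR 4.0.16 kept 13721 genes by filterByExpr (minimum count 10), scaled libraries by TMM and fitted robust quasi-likelihood F tests with 1 mean for each of 4 groups, 4 residual degrees of freedom and a spread shared over groups. Tests were 2-sided, with Benjamini-Hochberg adjustment over all tested genes and a threshold of 0.05. The SE was the absolute log2 fold change divided by the square root of the edgeR F statistic. The 95% intervals multiplied it by a t quantile with approximate degrees of freedom. RPKM used the deposited exon lengths. Correlations used log2 CPM with a prior count of 2. The chi-square per gene between libraries of a group was 6.43 to 18.5, so no pair agreed within sampling noise, which says nothing of a shared animal or pool. A floor of 3 counts was 0.0608 to 0.161 CPM, for counting error only. The integrin genes and lists were chosen with earlier results of these data known. All 10 integrin genes, Dnmt3a, up to 4 genes of each list by smallest p, other integrin subunits for their level, neighbours of Itgax and the 3 genes of most like pattern could be named. Alternatives changed the scaling, test (DESeq2 1.42.0), filter, libraries or replicate block. The single result of 1 gene of a list is not reported here. Scripts were tested on simulated counts.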

Additional observations from a re-analysis of the deposited data

Results flagged for a closer look

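The IL-6 response differed between HET and WT by the edgeR interaction test for 5 of the 10 integrin genes, with log2 differences (HET minus WT) of -0.87 for Itgb7, -0.79 for Itga6, -0.77 for Itgav, -0.76 for Itgax and -0.43 for Itga5. For this difference 8.12% of all tested genes were called, 4.52% as higher and 3.60% as lower in HET. The calls of Itgax, Itgav and Itga5 were lost without single libraries and that of Itga6 without both HET number 1 libraries, as given above. Among other integrin subunits the difference was -3.30 for Itgal, -2.25 for Itga8 and -0.45 for Itga9. That of Itga8 was lost without WT control number 1 (adjusted p = 0.0570) or WT IL-6 number 1 (0.0583), that of Itgal without WT IL-6 number 1 (0.0695) and that of Itga9 without any 1 of 7 libraries. Among adhesion genes it was -0.47 for Flna, -0.41 for Lyn and -0.44 for Actn1, each lost without any 1 of 5 or 6 libraries. Among ligands it was 2.37 for Fbln5, kept in all 15 alternatives, and -1.52 for Vcam1, lost in 10 of 15. Groups of 2 libraries are too small for a test of outlying samples.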

How the results depend on the processing

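Of 790 values recomputed under alternatives, 688 kept direction and call, 66 lost and 19 gained the call, and 17 changed sign. Calls kept in every alternative were Itgax, Itgam, Itga6, Itgb1 and Itgb7 with IL-6 in WT, Itgax and Itgb7 in HET, Itgb7 between genotypes in control, Itga6 and Itgav between genotypes with IL-6, and Itgb7 for the difference. The replicate numbers were taken to share only a number, as no label says what a number stands for. The column names of the counts join it to the genotype in both treatments (HET1, HET2, WT1, WT2), which may mark a shared source. Deviations of same-numbered libraries correlated at -0.11 (WT), 0.15 (HET), -0.06 (control) and 0.02 (IL-6). A source shared by same-numbered libraries of a genotype was not tested. With a replicate block the integrin genes called were 7 (WT), 4 (HET), 1 (control), 6 (IL-6) and 4 (difference), and of all genes 1793, 1727, 339, 2288 and 506 against 2515, 2508, 666, 3021 and 1114 without it. Without both HET number 2 libraries, or without both HET number 1 libraries, each HET group held 1 library. Fewer of all tested genes were then called in each comparison that uses HET, and fewer integrin genes as well. Leaving out 1 library gave 3 to 6 with IL-6 in HET, 1 to 3 in control, 2 to 6 with IL-6 and 2 to 8 for the difference. All genes called ran from 1577 to 3073 (IL-6 in WT), 697 to 3945 (HET), 33 without HET control number 1 to 1304 without WT control number 1 (control), 862 to 4000 (IL-6) and 188 to 2123 (difference). Signs turned only in values that were not called. With IL-6 in HET, Itgb2 was 0.00352 with no filter, 0.0479 without both HET number 1 libraries and -0.0499 to 0.0163 leaving out 1 library. In the same comparison Itga6 was 0.0290 and Itgb5 0.0777 without both HET number 1 libraries, and Itgb5 was -0.159 to 0.0579 leaving out 1 library. In control Itga4 was 0.101 without both HET number 2 libraries and -0.160 to 0.117 leaving out 1 library, and Itgb1 was -0.146 to 0.0840. With IL-6 between genotypes Itgb2 was -0.00754 with RLE factors, -0.00747 with DESeq2, -0.0259 without both HET number 2 libraries and -0.0858 to 0.0961 leaving out 1 library, and Itgb5 was -0.169 to 0.0491. The causes were not tested. Each group has 2 libraries, and a library left alone in its group was assumed to vary like the others. The 2 libraries differed more within WT groups than within HET groups, yet 1 estimate of spread served both.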
